A study of Mus musculus with 8 samples.

Results

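The polyamine metabolism genes are the 9 rows of the deposited expression table whose symbol is Odc1, Amd1, Srm, Sms, Oaz1, Oaz2, Azin1, Sat1 or Smox, out of 46477 rows. They were picked by symbol, with earlier results of the same 8 libraries known. Their values in these libraries are therefore given as a description, without p-values, and how many of them pass the fit over all genes is counted only beside the share of all genes that do. B16-F10 cells, a mouse melanoma line, had been cultured for 24 hours on matrix left by smooth muscle cells, which had received siRNA for 72 hours and then medium for another 72 hours before lysis. The medium was either SFM, an abbreviation that the labels do not spell out, or TCM, read here as the B16-F10 tumor conditioned media of the series title. The siRNA was siNT, siKLF4, siFN, or siKLF4 with siFN (siKLF4-siFN), which with 2 media gave 8 conditions of 1 library each. The labels give neither the source of the smooth muscle cells nor whether cultures were grown separately, so p-values here reflect no more than how far the 8 libraries scatter. The siRNA went to the smooth muscle cells and the RNA came from the melanoma cells, so no gene measured here checks the knockdown.

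Polyamines (putrescine, spermidine and spermine) are small, positively charged molecules that bind nucleic acids and are needed for growth and protein synthesis. Ornithine decarboxylase, encoded by Odc1, makes putrescine and is a known target of the transcription factor MYC. Spermidine synthase (Srm) and spermine synthase (Sms) extend the chain with groups supplied by S-adenosylmethionine decarboxylase (Amd1). Antizymes (Oaz1, Oaz2) send ornithine decarboxylase to the proteasome, and the antizyme inhibitor (Azin1) binds antizymes and frees the enzyme. Spermidine/spermine acetyltransferase (Sat1) and spermine oxidase (Smox) start the breakdown of polyamines. Much of this control acts on translation and protein stability, which RNA levels do not show.

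Upstream windows are shown for Odc1, whose own values peaked on SFM matrix with siFN, and for Sat1, whose own values were lowest there. RefSeq start sites on GRCm38.p6 were found for 7 of the 9 members. Srm and Azin1 were not matched. The windows run from base -250 to -80 relative to the RefSeq start, 5′ to 3′ on the gene's strand, with chr12:17544623-17544793 (plus strand) for Odc1 and chrX:155216529-155216699 (minus strand) for Sat1. Capitals mark GGGCGG on either strand, the GC box.
Odc1: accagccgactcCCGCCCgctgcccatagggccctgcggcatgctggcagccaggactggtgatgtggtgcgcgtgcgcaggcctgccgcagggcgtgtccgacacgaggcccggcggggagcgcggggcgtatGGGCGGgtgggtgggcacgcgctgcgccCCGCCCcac
Sat1: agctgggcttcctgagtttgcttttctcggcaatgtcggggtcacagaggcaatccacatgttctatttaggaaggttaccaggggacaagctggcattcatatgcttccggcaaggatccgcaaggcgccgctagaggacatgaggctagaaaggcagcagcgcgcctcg
The Odc1 window holds 3 GC boxes and is 77.2% G or C, and the Sat1 window holds 0 and is 55.6% G or C. Smox has 3, Oaz2 has 2, Sms has 0 or 4 by start site, and Amd1 and Oaz1 have 0. None of these was ordered like Odc1 or Sat1, and the part of GC boxes in the values was not tested. The GC box was chosen for display after the windows were seen. It occurs in 19.6% of 32851 RefSeq windows at the same distance. The E-box CACGTG, bound by MYC and related factors, was found in neither window. Among the 7 members matched, it was found only upstream of a Sms start site. Bases outside -250 to -80 were not searched, so an E-box elsewhere in these genes would be missed. The E-box occurs in 3.41% of all windows. Neither window held TTGCATCA (0.454% of windows), TGACNNNGC (6.23%) or CCAAT (23.4%), each searched on both strands.

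The values are FPKM as the authors deposited them, a count of fragments divided by gene length and library size, so levels can be set side by side per length. The depth, estimated from the steps of low values, was 11500000 to 22900000 reads per library, and at an FPKM of 1 a gene then has 11.5 to 22.9 reads per kilobase. Differences are on the scale of log2(FPKM + 1), which understates the change of low genes. A limma test, with a threshold of 0.05 on the p adjusted by Benjamini-Hochberg, was run on the 6917 genes whose FPKM averaged 1 or more. Gene positions are those of GENCODE M21 on GRCm38. This left 7 members in, with Sms (mean 0.328) and Smox (0.917) below the limit and Oaz2 (3.01) the lowest above it. Of 7 melanocyte markers, 6 reached a mean FPKM of 1. The summed level of those 7 was 351 to 524 in the 2 SFM libraries with siFN and 419 to 554 in the others. Among other cell types the limit was reached by 1 of 7 smooth muscle, 0 of 6 fibroblast, 0 of 5 endothelial and 1 of 6 leukocyte markers. The smooth muscle marker was Des (0.903 to 1.48) and the leukocyte marker Cd68 (1.95 to 4.52). The smooth muscle marker Smtn stood at 0.292 to 0.896, while Acta2, Pecam1 and Ptprc stayed under 0.01 in every library.

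**Figure D1:**
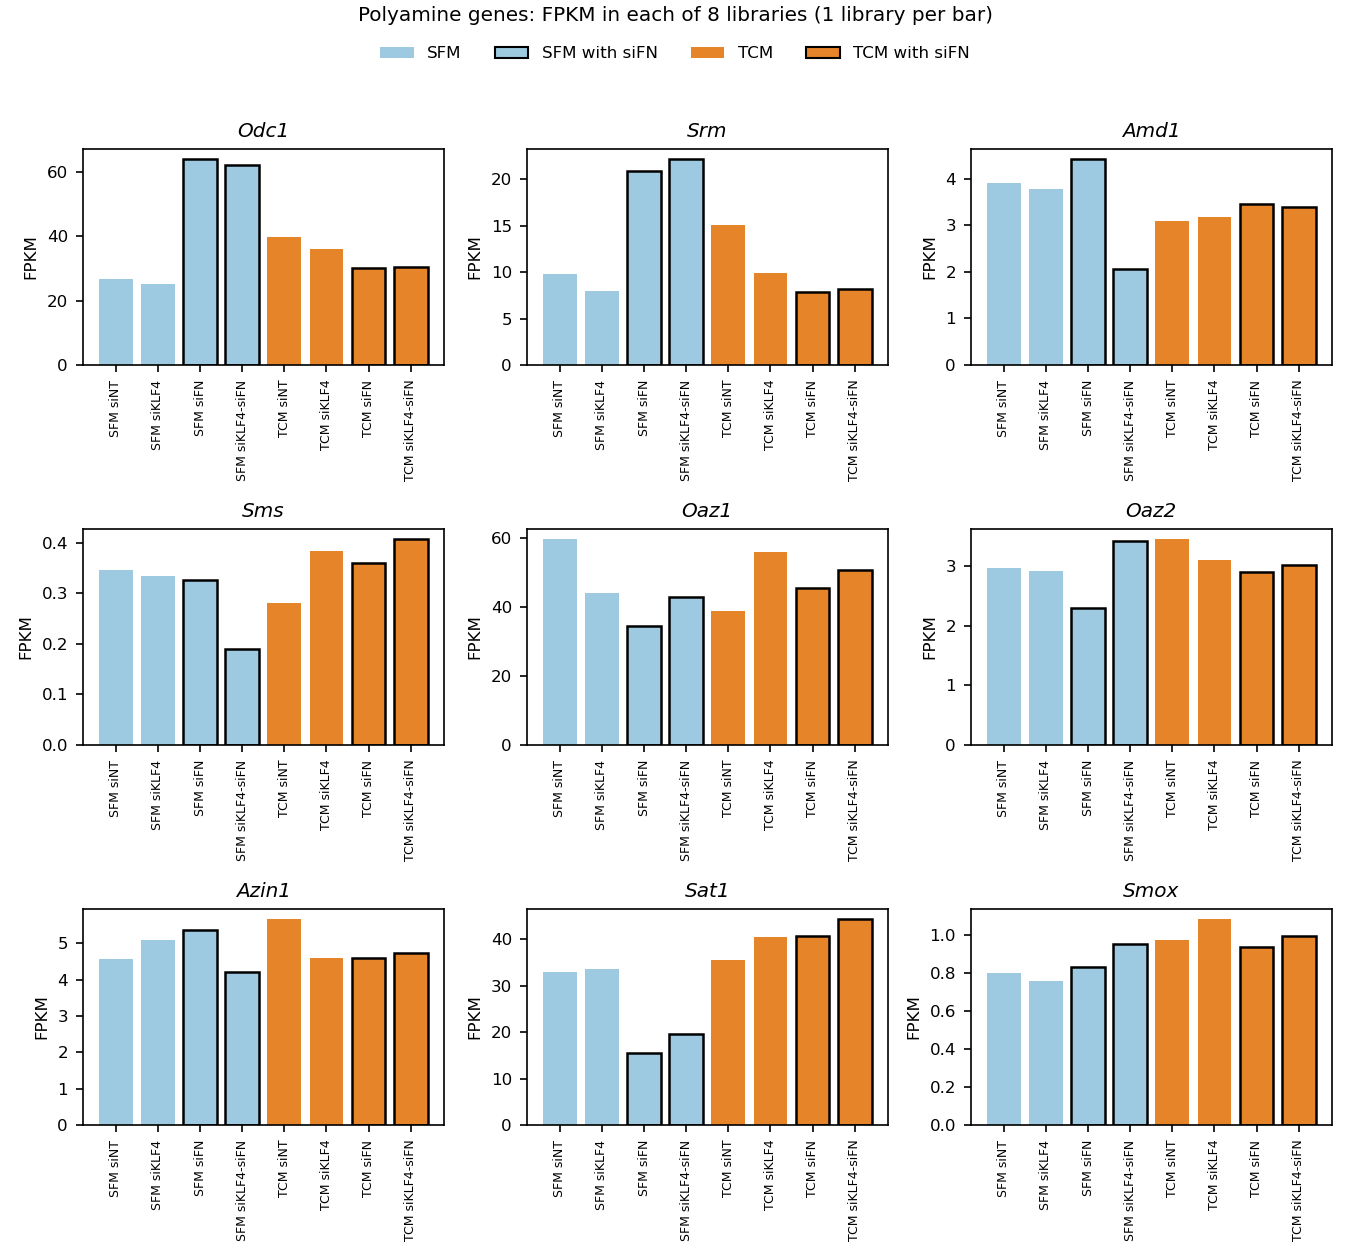
FPKM of the 9 polyamine genes (y axis, from 0, own scale per gene) in each of 8 libraries (x axis), 1 library per bar, with blue for SFM, orange for TCM and a black outline for siFN. Odc1 and Srm are highest, and Sat1 lowest, in SFM siFN and SFM siKLF4-siFN.

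Odc1 and Srm were highest, and Sat1 lowest, in the 2 melanoma libraries from SFM matrix with siFN. Odc1 (chromosome 12, 17544794 to 17551505, plus strand) had, on SFM matrix, an FPKM of 26.6 with siNT, 25.2 with siKLF4, 63.8 with siFN and 62.0 with both siRNAs. On TCM matrix it was 39.8 with siNT, 36.0 with siKLF4, 30.2 with siFN and 30.5 with siKLF4-siFN. The 2 SFM libraries with siFN thus stood well above the other 6, the 2 TCM libraries without siFN came next, and the lowest were the 2 SFM libraries without siFN. The level in SFM siFN was 2.39-fold that of SFM siNT, and the level in SFM siKLF4-siFN was 2.46-fold that of SFM siKLF4. On TCM matrix the level was 1.32-fold lower with siFN than with siNT, and 1.18-fold lower with siKLF4-siFN than with siKLF4. The fitted siFN difference was 1.25 ± 0.14 (SE) on SFM matrix and -0.31 ± 0.14 on TCM matrix. Counting error per kilobase was 2.73% to 5.88%, so counting noise is small beside these differences.

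Srm (chromosome 4, 148591503 to 148594993, plus strand), the enzyme that turns putrescine into spermidine, was ordered much like Odc1. On SFM matrix its FPKM was 9.81 with siNT, 7.99 with siKLF4, 20.9 with siFN and 22.1 with both siRNAs. On TCM matrix it was 15.02, 9.93, 7.90 and 8.22 in the same order of siRNA. TCM siNT again came after the 2 SFM libraries with siFN, while the remaining 5 libraries lay between 7.90 and 9.93. The fitted siFN difference was 1.19 ± 0.19 (SE) on SFM matrix and -0.55 ± 0.19 on TCM matrix. The second of these rests largely on TCM siNT, and was -0.29 without that library and -0.80 without TCM siKLF4. Odc1 FPKM was 2.65 to 3.82 times that of Srm in the 8 libraries, a narrow range beside the spread of either gene.

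The remaining synthesis genes did not share this order. Amd1 (chromosome 10, 40287458 to 40302186, minus strand) had, on SFM matrix, an FPKM of 3.90 with siNT, 3.78 with siKLF4, 4.41 with siFN and 2.07 with both siRNAs. On TCM matrix it was 3.08, 3.18, 3.46 and 3.38. The highest and the lowest value were therefore the 2 SFM libraries with siFN, and its fitted siFN difference there, -0.25 ± 0.22, averages a pair above 0 (0.14) and a pair below it (-0.64). Reads of Amd1 can be shared with near-identical copies, of which Amd2 stood at 1.27 to 4.37 and the pseudogene Amd-ps3 at 6.95 to 13.2. Summed over the 3, SFM siFN was again highest (21.9) and SFM siKLF4-siFN lowest (10.3), with 15.1 to 17.3 in the others. Sms stood at 0.189 in SFM siKLF4-siFN and at 0.280 to 0.406 elsewhere. That is 2.44 to 8.01 reads per kilobase, with a counting error of 35.3% to 64.0% for each kilobase counted. Sms was not tested.

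SFM siKLF4-siFN also stands apart in base composition. In the 2185 tested genes with the lowest GC content (33.6% to 47.5% of the longest transcript) its median deviation from the gene mean was -0.282 on the log2 scale, and in the 2181 with the highest it was 0.213. In the other libraries these medians lay between -0.097 and 0.090. Amd1 (41.4%), Azin1 (39.3%), Sms (43.5%) and Sat1 (43.8%) fall in the low range, and Srm (59.8%), Oaz1 (55.7%) and Smox (54.5%) in the high one. After values were adjusted for GC content per library, the fitted siFN difference on SFM matrix was 1.14 for Odc1, 1.02 for Srm and -0.67 for Sat1. For Amd1 it turned from -0.25 to 0.12. Without SFM siKLF4-siFN it was 1.23 for Odc1, 1.02 for Srm, -0.99 for Sat1 and 0.16 for Amd1. The part of base composition in these values was not tested further.

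Of the genes that control ornithine decarboxylase, none was ordered like Odc1. Oaz1 (chromosome 10, 80826656 to 80829290, plus strand) had, on SFM matrix, an FPKM of 59.5 with siNT, 44.1 with siKLF4, 34.4 with siFN and 42.9 with both siRNAs. On TCM matrix it was 38.7, 55.8, 45.5 and 50.7. SFM siFN was the lowest, but SFM siKLF4-siFN lay above TCM siNT, and the fitted siFN difference on SFM matrix of -0.41 ± 0.24 (SE) became -0.03 without SFM siNT. The pseudogene Oaz1-ps was listed at 43.1 to 83.3, more than Oaz1 itself in all 8 libraries, so the split of reads between the 2 is uncertain. Their sum was lowest in SFM siFN (77.6) and 109 to 139 elsewhere. Oaz2 stood at 2.29 in SFM siFN and at 2.90 to 3.45 in the other 7 libraries, with its own pseudogene at 1.34 to 2.97. Azin1 had the narrowest range of the 9, from 4.20 in SFM siKLF4-siFN to 5.66 in TCM siNT, a ratio of 1.35. Its fitted siFN difference on SFM matrix was -0.02 ± 0.15, but 0.47 after the adjustment for GC content. Per length, Odc1 was 1.85 times Oaz1 on SFM matrix with siFN, 1.45 times with both siRNAs, and 1.03 times in TCM siNT, against 0.448 to 0.664 in the other 5.

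Sat1 (chromosome X, 155213132 to 155216449, minus strand), the catabolic acetyltransferase, lay opposite to Odc1. On SFM matrix its FPKM was 32.9 with siNT, 33.6 with siKLF4, 15.5 with siFN and 19.5 with both siRNAs. On TCM matrix it was 35.4, 40.4, 40.6 and 44.2. The 2 SFM libraries with siFN were lowest. SFM siFN was 2.12-fold below SFM siNT, and SFM siKLF4-siFN was 1.72-fold below SFM siKLF4. The fitted siFN difference was -0.89 ± 0.15 (SE) on SFM matrix and 0.16 ± 0.15 on TCM matrix. Sat1 in TCM siNT was the lowest of the 4 TCM libraries, on the side of the 2 SFM libraries with siFN. Against SFM siNT it did not lean that way, unlike Odc1 and Srm: it was 1.08-fold that level. All 4 TCM libraries (35.4 to 44.2) were above all 4 SFM libraries (15.5 to 33.6), as a separation in either direction was for 5.45% of the genes tested. The nearest pair was TCM siNT and SFM siKLF4, close to each other. In a bulk library, a lower level in every cell cannot be told apart from fewer cells with a high one.

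Smox, the oxidase, was near the limit of measurement, on SFM matrix at 0.8002 with siNT, 0.760 with siKLF4, 0.832 with siFN and 0.953 with both siRNAs. On TCM matrix it was 0.973, 1.08, 0.941 and 0.996. It was higher on TCM than on SFM matrix in 4 of 4 matched pairs, from 1.05-fold with siKLF4-siFN to 1.43-fold with siKLF4. How many genes have all 4 such pairs of one sign was not counted. Its counting error was 22.6% to 33.8% for each kilobase counted, and it was not tested. The ratio of Odc1 to Sat1 FPKM describes these members only. On SFM matrix it was 4.10 with siFN and 3.17 with both siRNAs. It was 1.12 in TCM siNT and 0.690 to 0.892 in the other 5 libraries. Amd1, Sms, Oaz1, Oaz2, Azin1 and Smox did not have both SFM libraries with siFN outside the range of the other 6.

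**Figure D2:**
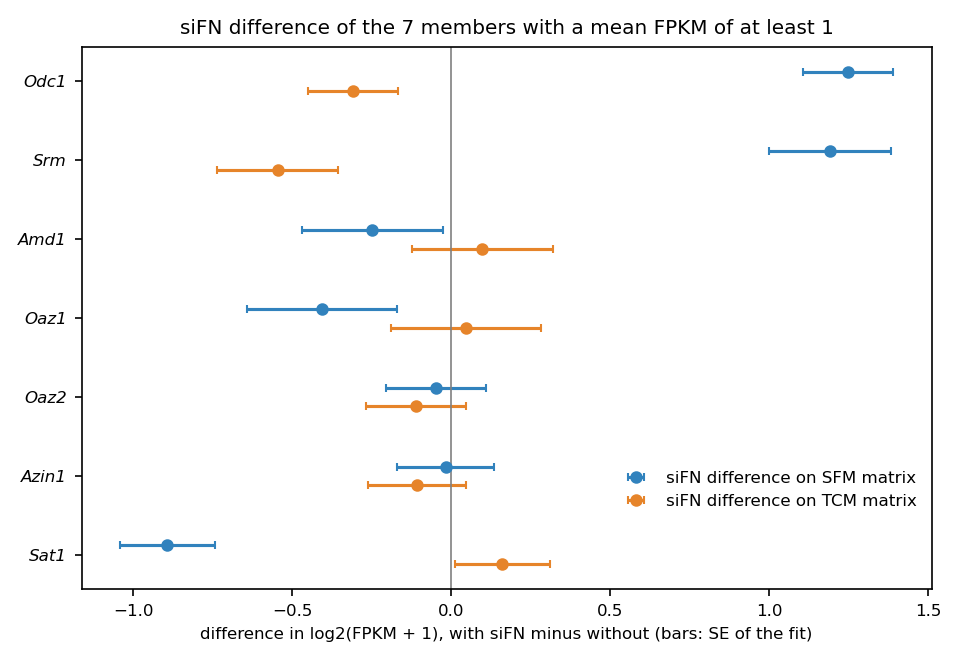
Fitted siFN difference in log2(FPKM + 1) (x axis, with siFN minus without) for the 7 members tested (y axis), in blue on SFM matrix and in orange on TCM matrix, with bars for the SE of the fit. Odc1 and Srm lie right of 0 on SFM matrix (1.25 and 1.19) and left of it on TCM matrix, and Sat1 lies the other way.

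The medium by siFN interaction asks whether the difference that went with siFN depended on the medium. It is the TCM minus SFM difference with siFN less that without siFN. It was -1.56 ± 0.20 (SE) for Odc1, -1.74 ± 0.27 for Srm and 1.05 ± 0.21 for Sat1. For the other 4 tested members it was 0.35 ± 0.31 (Amd1), 0.45 ± 0.33 (Oaz1), -0.06 ± 0.22 (Oaz2) and -0.09 ± 0.22 (Azin1). On leaving out 1 library it ran from -0.06 (without SFM siKLF4-siFN) to 0.75 (without SFM siFN) for Amd1, and from 0.08 (without SFM siNT) to 0.83 (without SFM siKLF4) for Oaz1. After the GC adjustment it was -0.19 for Amd1, 0.74 for Oaz1 and -0.81 ± 0.20 for Azin1. Odc1, Srm and Sat1 were past the limma threshold (3 of 7 members), where 7.17% of all genes tested were. The same 3 were past it for siFN on SFM matrix (6.92% of all genes, with 3.17% above 0 and 3.76% below) and for TCM against SFM with siFN (16.9%). Since the members were chosen with these contrasts known, nothing is read from those counts. They also end at 0 of 7 for all 3 contrasts with no filter and without SFM siKLF4-siFN. In the second case limma calls 0 genes in all. Without SFM siFN they are 4 of 7, Amd1 included, for all 3. For the interaction the count is also 0 of 7 with a pseudocount of 0.1 and without SFM siNT, SFM siKLF4, TCM siNT, TCM siFN or TCM siKLF4-siFN, and 2 of 7 without TCM siKLF4. For siFN on SFM matrix it is 0 of 7 without SFM siNT or SFM siKLF4, and 1 of 7 (Odc1) without TCM siFN or TCM siKLF4-siFN. For TCM against SFM with siFN it is 0 of 7 without TCM siFN or TCM siKLF4-siFN. Sat1 drops out of the interaction (0.74) and of siFN on SFM matrix after the GC adjustment. The median interaction of the 7 was -0.06, as it was over all genes tested (-0.06). Both SFM libraries with siFN lay outside the range of the other 6 for Odc1, Srm and Sat1, and so they did for 32.6% of the genes tested. For the same 3 members the siFN pairs had opposite signs on the 2 matrices, as 41.1% of the genes tested did.

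The effects of medium, siKLF4 and siFN over all 8 libraries ask whether each had an effect of its own. None of the 7 members was past the threshold for any of them, and neither was any of the 6917 genes (0% in each), with 464, 84 and 84 genes at an unadjusted p under 0.05. The residual of that additive model holds the medium by siFN contrast, so these counts do not show that the effects are absent. Sat1 had the largest medium value of the members, 0.71 ± 0.23 (SE) higher on TCM matrix, but its 4 matched pairs were uneven: 0.10 with siNT, 0.26 with siKLF4, 1.33 with siFN and 1.14 with siKLF4-siFN. Odc1 and Srm averaged pairs of opposite sign, with -0.25 ± 0.32 and -0.44 ± 0.36. For siKLF4 the values ran from -0.21 (Amd1) to 0.16 (Sat1), with an SE of 0.17 for Amd1 and 0.23 for Sat1. The siKLF4 pair that stood out was Amd1 on SFM matrix with siFN, where 2.07 against 4.41 is a 2.13-fold lower level. On the log2 scale that pair differed by -0.82. Its lower value is that of SFM siKLF4-siFN, the library that stands apart in base composition. The fitted siKLF4 value of Amd1 was -0.11 after the GC adjustment and -0.02 without that library. Sat1 lay slightly above 0 in all 4 siKLF4 pairs, by 0.03 to 0.31, and the share of genes with 4 such pairs of one sign was not counted. No member had its 4 libraries with siKLF4 all above or all below the other 4, nor its 4 with siFN, which 0.607% and 0.954% of the genes tested did.

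The other genes of the pathway were 26 in number, and 15 of them were tested. This list was also chosen with earlier results known, so its p-values are given as a description. For the interaction, 1 of the 15 fell (3.34% of all genes tested did) and none rose (3.83%). It was Slc3a2, the heavy chain of amino acid transporters that has also been tied to polyamine export, at -1.13 ± 0.24 (SE, limma adjusted p = 0.0444). Its FPKM was 32.3, 29.1, 45.4 and 51.9 in the SFM libraries (siNT, siKLF4, siFN, siKLF4-siFN) and 45.0, 36.8, 29.7 and 27.9 in the TCM libraries. The 2 SFM libraries with siFN were highest, and TCM siNT close behind. The call was lost with a pseudocount of 0.1 and on leaving out any library but SFM siFN, with values of -1.31 to -0.95. With no filter the Slc3a2 call was lost too. The list lay 11 below 0 and 4 above it. Its median was -0.55 against -0.06 for all genes tested, of which 45.6% were above 0.

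With siFN, 5 of the 15 genes were lower and 1 higher on TCM than on SFM matrix by the limma test, against 8.53% and 8.41% of all genes tested. The lower ones were Mat2a, which makes S-adenosylmethionine (-1.05 ± 0.24, SE, adjusted p = 0.0375), Dhps, the first enzyme that uses spermidine to form hypusine (-0.80, adjusted p = 0.0360), and Slc3a2 (-0.73, adjusted p = 0.0373). Eif5a, the translation factor that carries hypusine, was lower by -0.55 (adjusted p = 0.0483), and the arginine transporter Slc7a1 by -0.50 (adjusted p = 0.0491). Mtap, which recycles the by-product of spermidine and spermine synthesis, was higher (0.52, adjusted p = 0.0421). For Mat2a the FPKM was 70.9 (siFN) and 90.03 (both siRNAs) on SFM matrix against 37.6 and 38.5 on TCM matrix. Each of the 6 calls was lost on leaving out 5 to 7 of the 8 libraries in turn, among them SFM siKLF4-siFN, and those of Eif5a and Slc7a1 also after the GC adjustment. All 6 calls were also lost with no filter, and those of Eif5a and Slc7a1 with a pseudocount of 0.1. The Slc7a1 call was lost as well when libraries were centred on their medians and when they were quantile normalized. For siFN on SFM matrix 0 of the 15 passed, also for Eif5a (0.61, adjusted p = 0.0548) and Slc7a1 (0.54, adjusted p = 0.0614). Of the 15 values 11 were above 0, as were 50.7% over all genes tested. The polyamine transporting ATPase Atp13a2 stood at 2.999 on SFM matrix with siFN, 5.58 there with both siRNAs and 5.55 in TCM siNT, against 7.40 to 9.19 in the other 5 libraries (interaction 0.93 ± 0.32, adjusted p = 0.104). The arginase genes Arg1 and Arg2, whose products make ornithine, and Agmat, which encodes agmatinase, were under 0.01 in each library.

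**Figure D3:**
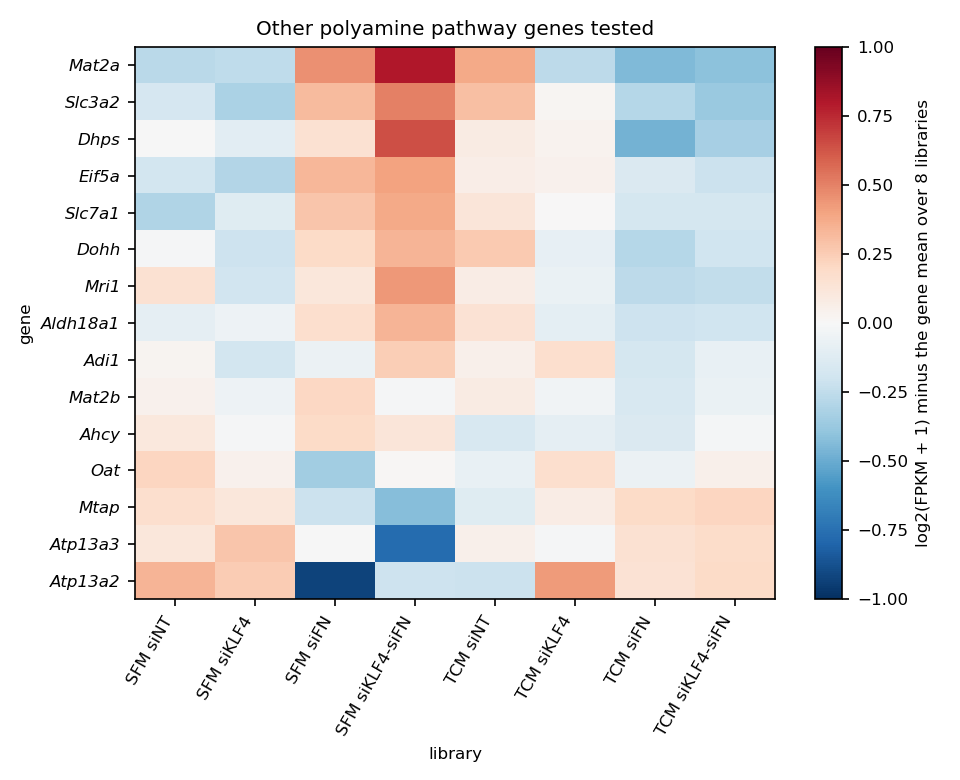
log2(FPKM + 1) minus the gene mean over 8 libraries (colour, from -1 in blue to 1 in red) for the 15 tested genes of the wider pathway (rows, ordered by their interaction value) in each library (columns). Mat2a, Slc3a2, Eif5a and Slc7a1 are red in both SFM libraries with siFN, while Atp13a2 and Mtap are blue there.

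Other genes that follow growth were set beside the members, from lists also chosen with earlier results known. Myc, whose product is a known activator of Odc1, had an FPKM of 11.2, 9.97, 19.8 and 16.3 in the SFM libraries and 20.0, 15.3, 12.8 and 13.1 in the TCM libraries, in the order siNT, siKLF4, siFN, siKLF4-siFN. Myc was thus as high in TCM siNT as in SFM siFN. Its interaction was -1.12 ± 0.22 (SE, limma adjusted p = 0.0432), and it was the only 1 of 7 tested genes of the MYC network past the threshold. Of 14 nucleolar genes, which make ribosomes, 5 fell in the interaction (3.34% of all genes tested did) and none rose (3.83%): Rrp9 (-0.86), Ppan (-1.48), Nop16 (-1.18), Rrp12 (-0.90) and Bop1 (-0.80). Each of these 6 calls, Myc included, was lost on leaving out 6 or 7 of the 8 libraries in turn and with a pseudocount of 0.1. All 6 were also lost with no filter, and those of Myc, Rrp9, Rrp12 and Bop1 after the GC adjustment. Ncl and Npm1 lay the other way, at 1.41 ± 0.72 and 1.62 ± 0.63, and did not pass. In SFM siKLF4-siFN they stood at 10.2 and 11.9, against 24.0 to 50.1 for the pair in the other libraries.

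**Figure D4:**
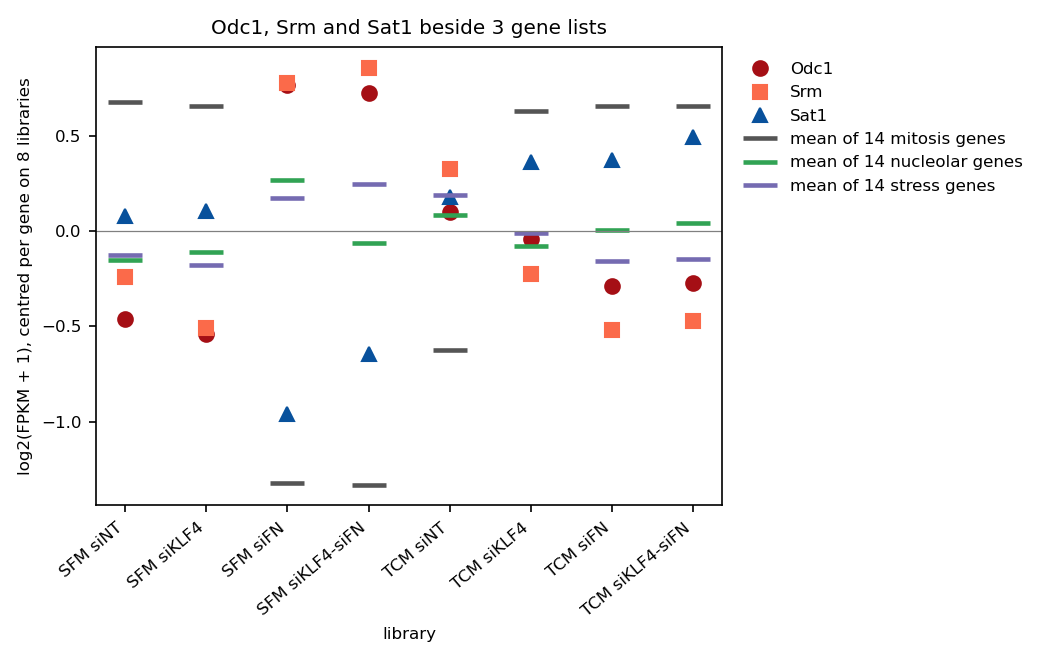
Odc1, Srm and Sat1 (points) and the means of 14 mitosis, 14 nucleolar and 14 stress genes (dashes) in each library (x axis), as log2(FPKM + 1) centred per gene on the 8 libraries (y axis). In SFM siFN and SFM siKLF4-siFN, Odc1 and Srm lie above 0 while Sat1 and the mitosis genes lie below it.

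Genes of cell division were low in the 3 libraries where Odc1 and Srm were highest. The centred mean of 14 mitosis genes was -1.32 (siFN) and -1.33 (both siRNAs) on SFM matrix and -0.623 in TCM siNT, against 0.630 to 0.677 in the other 5 libraries. Those 5 include TCM siKLF4 (0.630), where Odc1 stood at 36.0, against 39.8 in TCM siNT. The mean of 14 amino acid and ER stress genes took values of 0.174, 0.250 and 0.192 in the 3 libraries with low mitosis means. It lay under 0 elsewhere. Of the 14 mitosis genes 13 rose in the interaction and none fell, and of the 14 stress genes 2 fell and none rose (limma), where 3.83% of all genes tested rose and 3.34% fell. The part of either in the polyamine values was not tested. The genes most like the members over the 8 libraries, by Pearson's r on the log2 scale, were the collagen prolyl hydroxylase genes P4ha1 (0.993) and P4ha2 (0.991) and Eif3c (0.989) for Odc1. For Srm they were Cyb5r1 (0.999), Clptm1l (0.998) and Hmox1 (0.997), the last a gene of heme breakdown at 245 to 253 in the 2 SFM libraries with siFN, 165 in TCM siNT and 92.7 to 113 in the others. For Sat1 they were Arpc2 (0.984), Kbtbd11 (0.977) and Arhgap30 (0.976), and for Smox Sod1 (0.973), Psmd7 (0.962) and Cdc34 (0.960). These r describe 8 libraries of which 2 stand apart, and carry no test.

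The closest of the 28 pairs of libraries was TCM siFN and TCM siKLF4-siFN. They differed beyond counting noise in 21.6% of 1398 genes with a single transcript, with reads rebuilt from approximate depths, and by at least 1 on the log2 scale in 20 of the genes tested.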

How the data were processed

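RNA of B16-F10 cells was measured in 8 libraries, 1 per condition. The authors deposited FPKM values. The submitters' processing notes name mm10, Partek and STAR 2.4.1d. Counting rule, annotation and strand setting: not given in the sources used here. Values as small as 1.12e-38 are not whole reads, so some reads were divided between genes. Gene positions and GC content come from GENCODE M21 on GRCm38, the assembly of mm10, where all 9 members matched; 94.7% of tested genes had a GC content.

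Members and lists were chosen with earlier results of these data known. Genes whose FPKM averaged 1 or more were fitted on the scale log2(FPKM + 1) with limma 3.58.1 in R 4.3.3 (variance trend, two-sided, Benjamini-Hochberg over 6917 genes at 0.05). The additive model of medium, siKLF4 and siFN has 4 residual degrees of freedom. A model with the medium by siFN term has 3 and gave all contrasts within a medium or within siFN. No condition is replicated, so the spread comes from libraries with a level in common. Alternatives were another pseudocount, filter or scaling and each library left out in turn. The interaction test was tested on simulated data. All members are named. Of the wider pathway, genes past the threshold and the largest others are named, and up to 4 genes of each context list by p. Bop1, Ncl, Npm1, the markers Des, Smtn and Cd68 and some genes listed near 0 are named in addition, chosen after their values were seen. Depth was estimated in genes with 1 transcript over 600 nucleotides, where 44.6% to 48.7% of low values lay within 0.05 of a whole read (10% by chance for a fixed step), so depths are approximate.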

Additional observations from a re-analysis of the deposited data

Results flagged for a closer look

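The siFN difference was of opposite sign on SFM and TCM matrix in 2 of 2 pairs for 3 members. The difference on SFM matrix minus that on TCM matrix was 1.56 for Odc1, 1.74 for Srm and -1.05 for Sat1 on the log2 scale, and carries no p-value here because the genes were chosen with it known. Such opposite pairs occurred in 41.1% of all genes tested.

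The medium by siFN interaction (TCM minus SFM) was past limma's threshold for 496 of 6917 genes. Among the listed genes the text names it was -1.13 for Slc3a2, -1.12 for Myc, -0.86 for Rrp9, -1.48 for Ppan, -1.18 for Nop16, -0.90 for Rrp12 and -0.80 for Bop1. All of these calls were lost with no filter, and those of Myc, Rrp9, Rrp12 and Bop1 also after the GC adjustment. These lists too were chosen with earlier results known, and each of the 7 calls was lost on leaving out 6 or 7 of the 8 libraries in turn and with a pseudocount of 0.1.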

How the results depend on the processing

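No paired analysis was possible because each condition has 1 library and the labels carry no replicate numbers. No value named in the text that was past the threshold changed sign under any alternative run. Adjusting for GC content and summing gene copies were chosen after seeing the data. Genes past the threshold for the medium by siFN interaction numbered 496, but 0 with a pseudocount of 0.1, 14 with no filter, 251 with a mean FPKM of at least 5, and 0 to 2065 on leaving out 1 library. For siFN on SFM matrix the count was 479, with 281, 10, 259 and 0 to 1835 in the same order. For TCM against SFM with siFN it was 1172, with 14 with no filter, 626 at a mean of at least 5 and 0 to 2243 on leaving out 1 library. The main run tested 6917 genes, against 21556 with no filter and 2598 at a mean of at least 5. Counts under those filters are therefore not out of the same total, and a lower count there need not be a lower share. With no filter, 13 genes passed for siFN on TCM matrix and 8 for TCM against SFM without siFN, where 0 had; for siFN over both media the count was 0 to 1 on leaving out 1 library. Counts of 2065, 1835 and 2243 came without SFM siFN, and the 1 gene without TCM siNT. Of the 15 wider pathway genes 1 passed for the interaction, with 0 at a pseudocount of 0.1 and with no filter, 2 at a mean of at least 5, 2 after the GC adjustment, and 0 to 9 on leaving out 1 library. With no filter this list had 24 genes tested, and at a mean of at least 5 it had 8, so those counts are not out of 15. The cause of these changes was not tested. For Odc1, Srm and Sat1 the fitted siFN difference on SFM matrix stayed at 1.23 to 1.26, 1.02 to 1.36 and -0.99 to -0.79 on leaving out 1 library. Sat1 was no longer past the threshold there or for the interaction (0.74) after the GC adjustment. Depth limits Sms and Smox.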
